A study of Mus musculus with 3 samples.

Results

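A set of 8 genes that mark or direct the neural lineage was followed in J1 mESCs, a mouse embryonic stem cell line, treated with PD0325901 (PD), an inhibitor of the kinase MEK. They were Sox1, Pax6, Zic1, Neurog1, Neurog2, Olig2, Nes and Tubb3. A probe was taken when the accession given for it belongs to a RefSeq transcript of 1 of these genes, which yielded 11 of the 55681 probes that were not controls and 8 of the 20660 genes that could be named. RNA came from 3 samples of 1 group, J1 cells of strain 129S4/SvJae kept feeder-free on gelatin in LIF (1000 U/mL) and given 1 µM PD for 24 h, and every sample had an Agilent expression array of its own, read in Cy3 alone. The methods of the study speak of independent experiments. The 3 arrays shared 1 slide and 1 scan. DMSO-treated cells were not analysed here, so every value describes PD-treated cells and none is an effect of PD.

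In the embryo, ectoderm that escapes BMP and Nodal signals becomes neural plate, and FGF signalling through MEK and ERK takes part in this step in mESCs. Sox1 is among the earliest markers of committed neuroectoderm, and Zic1 and Pax6 act in the neural plate and in dividing progenitors. The proneural bHLH factors Neurog1 and Neurog2 then drive progenitors out of the cell cycle to become neurons. Olig2 is a bHLH factor of motor neuron and oligodendrocyte precursors. Nes encodes nestin, an intermediate filament of neural progenitors, and Tubb3 encodes a beta-tubulin that is rich in neurons. Many developmental regulators have CpG-rich start sites, which is why the starts of these genes are shown first.

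The 250 bases upstream of the annotated start are printed for Neurog2, Neurog1, Sox1 and Tubb3, 5′ to 3′, with each CpG in capitals, from RefSeq on GRCm38.p6. Neurog2 is the member not detected on the arrays, Neurog1 is its closest relative among the members, Sox1 has the most CpGs of the members in the window of 300 bases described next, and Tubb3 was read above the 75th percentile on every array. The stretches are chr3:127632886-127633135 (plus strand), chr13:56252181-56252430 (minus strand), chr8:12395269-12395518 (plus strand) and chr8:123411303-123411552 (plus strand).
Neurog2: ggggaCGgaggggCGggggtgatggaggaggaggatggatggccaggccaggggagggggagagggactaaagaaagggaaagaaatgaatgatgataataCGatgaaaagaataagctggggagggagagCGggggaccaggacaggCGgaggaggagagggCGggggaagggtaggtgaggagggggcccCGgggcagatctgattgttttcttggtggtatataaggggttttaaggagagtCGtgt
Neurog1: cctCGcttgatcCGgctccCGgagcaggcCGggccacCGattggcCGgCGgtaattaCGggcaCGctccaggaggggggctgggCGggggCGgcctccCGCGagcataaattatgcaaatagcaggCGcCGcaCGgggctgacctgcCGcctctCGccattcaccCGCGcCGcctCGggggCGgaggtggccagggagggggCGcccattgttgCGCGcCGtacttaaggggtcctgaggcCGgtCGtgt
Sox1: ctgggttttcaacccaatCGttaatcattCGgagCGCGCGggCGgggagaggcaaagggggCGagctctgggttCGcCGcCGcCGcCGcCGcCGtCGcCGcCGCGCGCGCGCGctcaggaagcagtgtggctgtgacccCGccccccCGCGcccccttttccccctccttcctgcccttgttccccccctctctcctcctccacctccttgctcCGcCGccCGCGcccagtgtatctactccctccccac
Tubb3: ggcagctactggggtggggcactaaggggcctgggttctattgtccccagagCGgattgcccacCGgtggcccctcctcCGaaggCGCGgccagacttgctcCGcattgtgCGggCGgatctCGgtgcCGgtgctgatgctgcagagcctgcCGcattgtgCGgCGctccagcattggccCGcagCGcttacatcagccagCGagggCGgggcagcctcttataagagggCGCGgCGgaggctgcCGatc

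These stretches held 8 CpGs for Neurog2, 29 for Neurog1, 29 for Sox1 and 21 for Tubb3. Over the full window of 300 bases, which adds the first 50 transcribed bases, the 9 windows of the 8 genes (Pax6 has 2 starts) held a median of 25 CpGs, against a median of 7 over 32851 windows of mouse genes. The ratio of observed to expected CpG was 1.07 for Sox1, 0.97 for Zic1, 0.89 for Neurog1, 0.82 for Olig2, 0.77 for Tubb3 and 0.70 for Nes. It was 0.70 and 1.00 at the starts of Pax6, and 0.57 for Neurog2. A ratio of at least 0.6, a ratio used in definitions of a CpG island, was reached in 8 of the 9 windows and in 35.8% of all windows, and Neurog2 lay just under it. The E-box letters CANNTG, which read the same on both strands, occurred in 3 of the 9 windows (the second Pax6 start, Neurog1 and Zic1) and in 72.3% of all windows. The letters TATAAA, searched on both strands, occurred in the Olig2 window alone among the members and in 13.6% of all windows. These matches describe letters and are not binding sites.

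**Figure D1:**
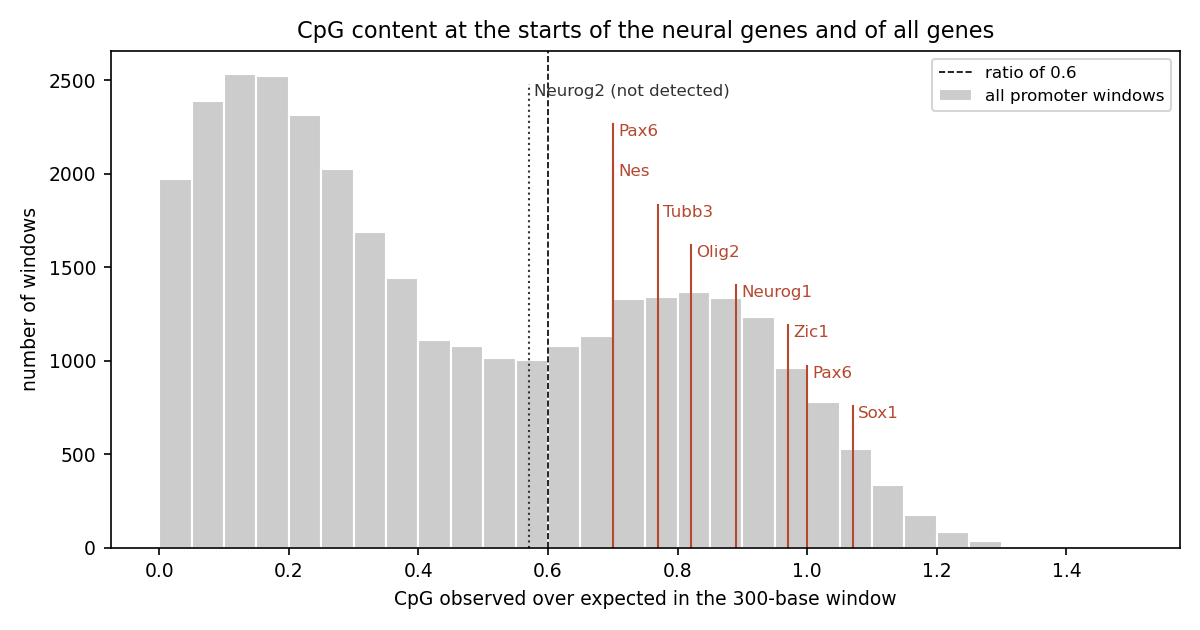
Histogram of the ratio of observed to expected CpG in 32851 windows of 300 bases around gene starts (grey bars, number of windows; ratios over 1.5 are counted in the last bar), with a line for each window of the 8 neural genes. Windows of the 7 detected genes (red) lie between 0.70 and 1.07, and the window of Neurog2 (dotted) lies at 0.57, left of the dashed line at 0.6.

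Values are the processed signal of the scanner software in linear units. A level is the log2 signal minus the 75th percentile of its array, so that 0 is the 75th percentile, and SD is taken over the 3 arrays. A probe was detected when it was flagged well above background on all 3 arrays, and the lowest signal with that flag was 10.1, 11.42 and 10.27 on replicates 1, 2 and 3. Of the 11 probes 8 were detected, against 60.3% of all probes, and 7 of the 8 genes had a detected probe, against 72.8% of all named genes. These shares are descriptions and no test was made on them. No spot of these probes carried an outlier flag and none was saturated. Signals of different probes depend also on probe sequence, so the genes were not ranked. In bulk RNA a low signal can come from a few cells or from little RNA in every cell, and the 2 cannot be told apart.

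**Figure D2:**
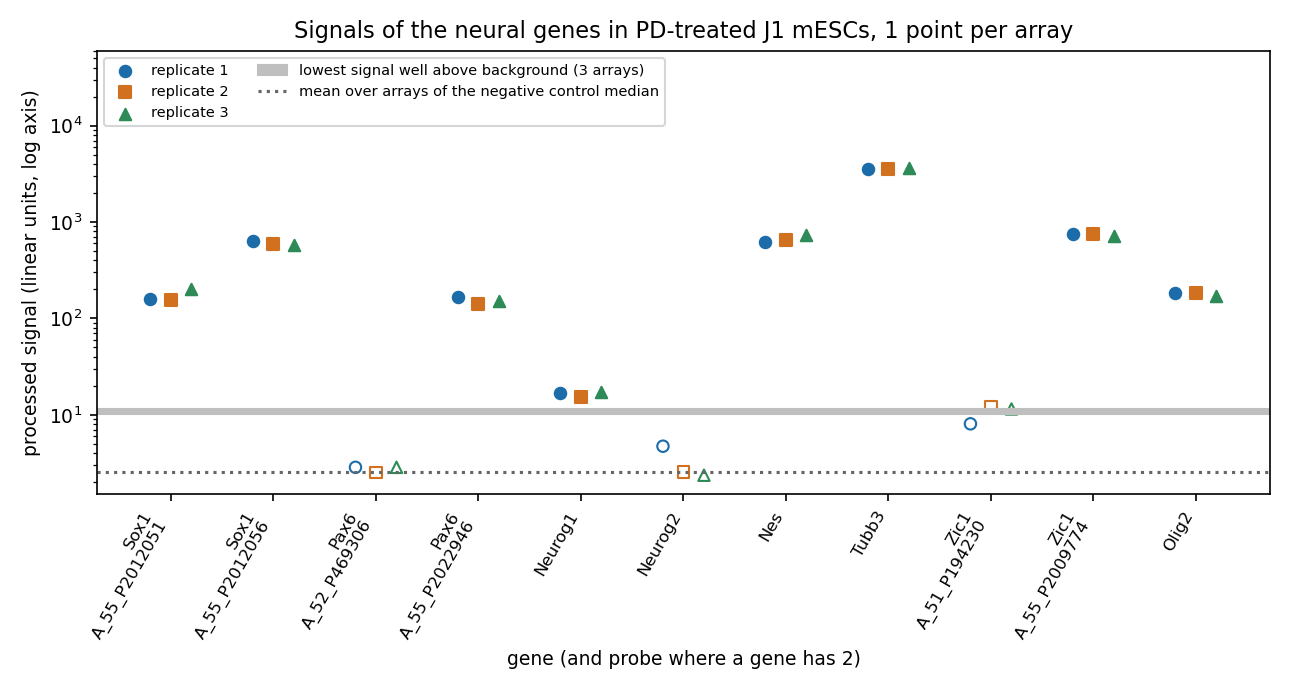
Processed signal (linear units on a log axis) of the 11 probes of the 8 neural genes on each of the 3 arrays. Filled points were well above background and open points were not, the grey band spans the lowest signals well above background on the 3 arrays (10.1 to 11.42), and the dotted line is the mean of the arrays' negative control medians. The 3 open probes, for Pax6, Neurog2 and Zic1, sit at or near the band or the dotted line.

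Among the regulators of the neural plate and progenitors, Sox1 was detected by both of its probes. Its brighter probe gave signals of 635, 591 and 574 on replicates 1, 2 and 3 (mean 600 ± 31.3, SD, n = 3), a level of 0.01 ± 0.050. Sox1 RNA was thus read near the 75th percentile of the array by this probe on every array. The dimmer probe gave 158, 155 and 204 (172 ± 27.6), a level of −1.80 ± 0.229. Here replicate 3 stood above the other two by up to 0.43 log2 units, a 1.35-fold difference. The brighter probe was lowest on replicate 3, so the probes of Sox1 did not share the order of the arrays.

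Pax6, a homeobox factor of the forebrain and eye, was detected by 1 of its 2 probes. That probe has 2 spots per array and gave mean signals of 165, 142 and 153 (153 ± 11.3), a level of −1.96 ± 0.054. Its spots read 155 and 175 on replicate 1, 129 and 157 on replicate 2, and 158 and 148 on replicate 3. Spots of 1 array thus differed by 0.17, 0.28 and 0.10 log2 units, while the mean levels of the arrays had a range of 0.11. The other Pax6 probe gave 2.85, 2.51 and 2.85 and never passed the flag for well above background. The looser flag for positive and significant signal was set on 2 of the 3 arrays. Negative control spots had medians of 2.42, 2.75 and 2.48, so this probe read close to the blank spots.

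Zic1, a zinc-finger factor of the dorsal neural plate, also had probes that disagreed. The detected probe gave 760, 759 and 723 (747 ± 21.2), a level of 0.32 ± 0.063, above the 75th percentile on all 3 arrays. The other gave 8.06, 12.0 and 11.5 (10.5 ± 2.13) and never passed the flag for well above background, although the looser flag for positive and significant signal was set on all 3. No fold between the probes of Pax6 or of Zic1 is given, because the dimmer one lay at or near background. Where the probes lie in their transcripts is not given in the sources used here. Among all 5476 genes with more than 1 probe, 17.8% had detected and undetected probes together, as Pax6 and Zic1 did among the 3 such members.

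Of the bHLH factors, Olig2 was detected with signals of 183, 183 and 172 (179 ± 6.57), a level of −1.73 ± 0.071. Its spot lies in a region of the array where the software marked several non-uniform spots on replicate 2, but the spot itself was not marked, and replicates 1 and 3 alone gave 183 and 172. Neurog1 gave 16.7, 15.4 and 17.2 (16.4 ± 0.951), a level of −5.18 ± 0.064. This signal was well above background on each array but lay close to the lowest flagged signals of 10.1 to 11.42. Those signals are not a cutoff, since the dimmer Zic1 probe read 12.0 and 11.5 on replicates 2 and 3 without the flag. On the arrays 5, 16 and 4 of 308 negative control spots also passed the flag, with a highest signal of 41.7, 533.2 and 232.2. Neurog1 is thus the detected member nearest to the lowest flagged signals. Neurog2 gave 4.72, 2.56 and 2.36 (3.21 ± 1.31) and never passed the flag for well above background. The highest of these, on replicate 1, was the only one that passed the looser flag, and those of replicates 2 and 3 lay below the negative control medians of their own arrays. No fold between Neurog1 and Neurog2 is given because they were read by different probes.

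Both cytoskeletal genes were read above the 75th percentile on every array. Nes gave 628, 647 and 726 (667 ± 52.2), a level of 0.16 ± 0.135, with replicate 3 highest and replicate 1 lowest. Tubb3 gave 3573, 3535 and 3677 (3595 ± 73.6), a level of 2.59 ± 0.055. The highest Tubb3 level was 1.07-fold the lowest. All 7 other beta-tubulins examined were detected as well. Whether beta-tubulin transcripts share probe sequence was not examined.

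The detected neural probes varied little between the samples. Their SD ran from 0.050 to 0.229 log2 units with a median of 0.063, against 0.090 over 33474 detected probes, and 2 of the 8 (the dimmer Sox1 probe and Nes) lay above that median. Over all detected probes the median SD fell from 0.187 in the dimmest 8369 to 0.058 in the brightest 8369. An SD above that of the dimmer Sox1 probe was found in 14.0% of all detected probes. None of the 8 had a range over 1 log2 unit, which 1.86% of all detected probes had. With the error the software attaches to each spot, 1 of the 8 differed between arrays by more than 2 combined errors, against 10.8% of all detected probes, and it was the dimmer Sox1 probe at 2.06. Replicate 1 was farthest from the median of the arrays in 2 probes, replicate 2 in 3 and replicate 3 in 3. The 8 probes were highest on replicate 1 in 1 case, on replicate 2 in 3 and on replicate 3 in 4, so no array was high or low for all neural genes. These SDs come from 3 arrays each and are themselves imprecise.

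**Figure D3:**
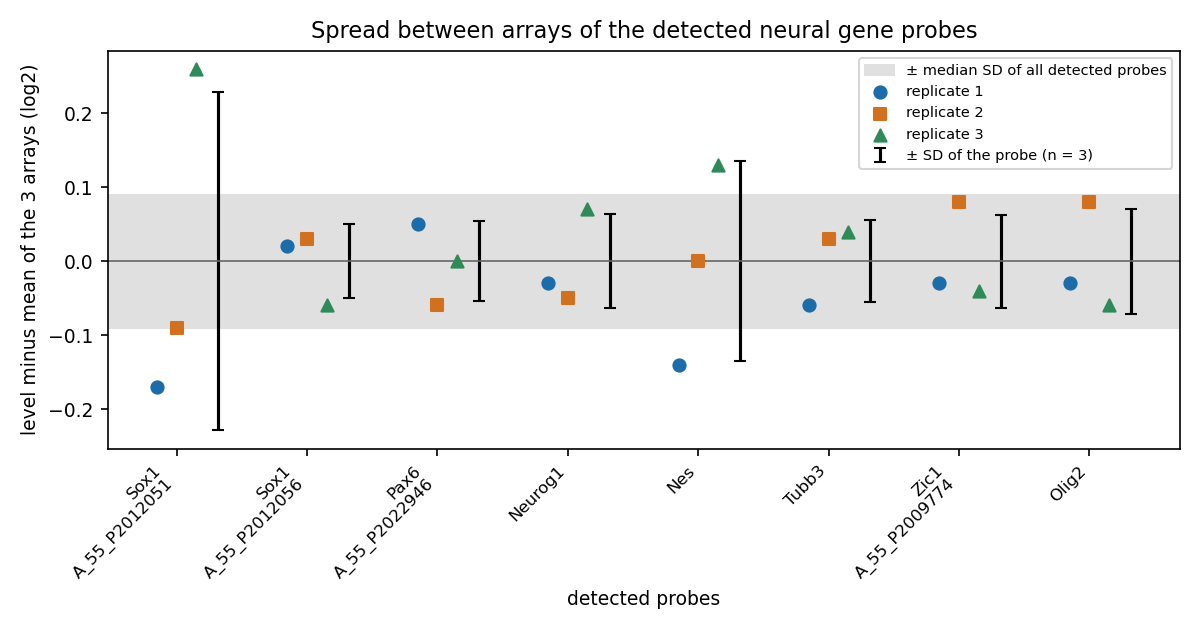
Level of each of the 8 detected probes on replicates 1, 2 and 3 minus its mean (log2 units), with black bars for ± SD (n = 3) and a grey band for ± 0.090, the median SD of all detected probes. The dimmer Sox1 probe and Nes reach outside the band, and the other 6 probes stay inside it.

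The genes around these members gave a mixed picture by class. Of 92 other neural genes in 5 lists, 64 (69.6%) were detected, near the 72.8% of all named genes. Neural progenitor genes were detected in 11 of 12 cases (91.7%), all but Fabp7, a fatty acid-binding protein of radial glia, which gave 3.27, 3.01 and 2.65. Neural plate and patterning factors were detected in 20 of 30 cases (66.7%). The first detected in the list were Sox2, Sox3, Sox21 and Otx2, of which Sox2 also belongs to the stem cell markers, and the first undetected were Otx1, Zic4, Six3 and Lhx5. Proneural bHLH relatives were detected least among the neural lists, in 6 of 14 cases (42.9%). Among them were Neurog3 (1270, 1172 and 1312), Neurod1, Olig1 (490, 500 and 563), Olig3 (118, 106 and 111) and Nhlh1. All 3 Olig genes were therefore detected, as were Neurog1 and Neurog3 but not Neurog2.

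Neuronal markers were detected in 16 of 23 cases (69.6%). The 7 not detected were Dcx, a microtubule protein of migrating neurons, Slc17a6, Gad1, Gad2 and Chat, which serve glutamate, GABA and acetylcholine transmission, Nefm, a neurofilament, and Isl1, a factor of motor neurons. All 3 Dcx probes stayed between 2.21 and 4.97. Glial markers were detected in 11 of 13 cases (84.6%), without S100b and Sox9. Gfap counted through the probe that gave 16.5, 14.9 and 18.9, while its other probes read between 2.28 and 3.50. In the marker sets used as a check on cell types, 7 of 8 neuron genes (all but Dcx) were detected. So were 5 of 6 glia genes (all but S100b), against 72.8% of all named genes. Their summed signals were 36081, 33068 and 32489 for neuron markers, and 906, 779 and 915 for glia markers on replicates 1, 2 and 3. No cell type was called from them. Repressors of neural genes and neural fate, such as the Rest, Hdac and Id genes and Bmp4, were detected in 15 of 15 cases. The share over all named genes was 72.8%. Bmp4 was detected by the probe that gave 1792, 1627 and 1649, while its other probe gave 2.61, 2.93 and 2.73. When all probes of a gene had to pass, the count was 14.

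All 10 embryonic stem cell markers were detected, against 72.8% of all named genes, with summed signals of 156324, 153323 and 144829. No cell type was called from this count either. Of other lineages, 9 of 10 primitive endoderm genes (not Afp) and 6 of 10 trophoblast genes (not Cdx2, Elf5, Hand1 and Psca) were detected. So were 5 of 10 genes of primitive streak and mesoderm (not T, Mixl1, Mesp1, Msgn1 and Wnt3). These lists hold 10 genes each, and no departure from the 72.8% of all named genes was tested. Fibroblast markers were detected in 7 of 10 cases (not Col3a1, Postn and Lum), near the share of all named genes. Their summed signals were 1545, 1451 and 1549. Such markers could come from carried-over feeder cells, although the cells were kept feeder-free, and their part in the neural signals was not tested. As a reference, 22 of 166 vomeronasal type 1 receptors (13.3%), pheromone receptors of the vomeronasal organ, passed the same rule.

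**Figure D4:**
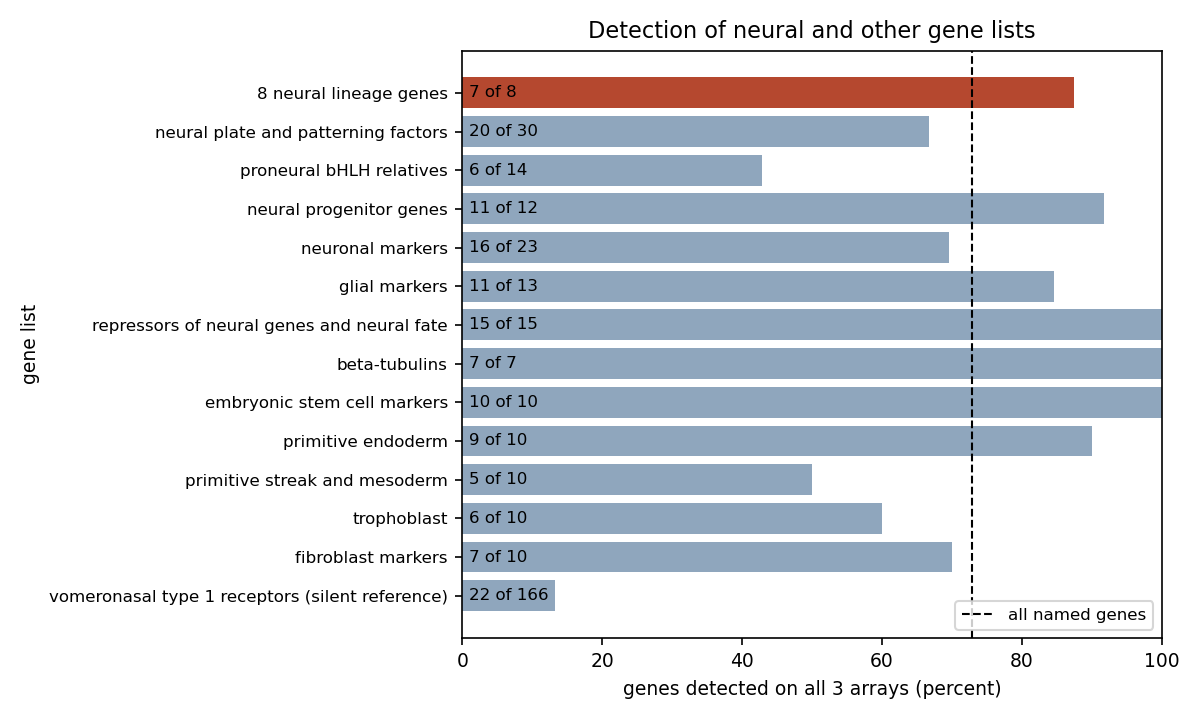
Percent of the genes of each list with a probe well above background on all 3 arrays (bars, with the number detected of the number on the array), and the 72.8% of all 20660 named genes as a dashed line. The 8 neural lineage genes (red, 7 of 8) and the progenitor list lie to the right of the line, and the proneural bHLH list (6 of 14) and the vomeronasal receptors (22 of 166) lie to the left.

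Over all named genes, those with a CpG-rich start were detected more often. Of 8803 named genes with a window at a ratio of at least 0.6, 92.0% were detected, and of 7571 genes with windows but none at that ratio, 51.0% were. The 7 neural genes with such a window were all detected, and Neurog2, without one, was not. Read against the 92.0%, the 7 detected members lie close to the background of genes with such a window. Neurog2 is a single gene at a ratio of 0.57, just under 0.6, so it cannot show a split of the members by CpG content.

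In the other lists, vomeronasal receptors left out, 2 of 150 detected probes (1.33%) and 11 probes that were not detected had a range over 1 log2 unit. The 1.33% is near the 1.86% of all detected probes, and 0 of 8 members is no departure from either share. Of the 2 detected probes, that for Pax3, a factor of the dorsal neural tube, gave 46.1, 282 and 43.3, and its range fell from 2.75 to 0.03 log2 units without replicate 2. The other, for the RNA-binding protein gene Msi1, gave 32.0, 47.5 and 24.0, with a range of 1.03, or 0.36 without replicate 2. The remaining 11 were not detected probes of Zic4, Pax2, Dbx1, Pou3f2, Atoh7, Bhlhe22, Gad1, Gad2, Foxa2, Msgn1 and Fgf8. Replicates 1 and 3 were the closest pair over all detected probes (SD of the difference 0.22, against 0.293 and 0.295 for the pairs with replicate 2).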

How the data were processed

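Total RNA of 3 PD-treated J1 samples was hybridised to 1-colour Agilent arrays. The authors deposited spot intensities from Agilent Feature Extraction 10.7, background-subtracted and detrended within each array by that software, and a table of log2 values per probe whose normalization is not stated. The intensities were not normalized between arrays, so a log2 level was computed here from the unflagged spots of a probe, relative to the 75th percentile of each array (619.8, 576.6 and 594.9). Detection needed at least 50% of a probe's spots well above background on all 3 arrays, and a gene needed 1 such probe. Accessions without versions were matched to RefSeq genes of GRCm38.p6 for 27235 probes (48.9%), and the array grid refers to mm9, so no probe coordinates are given. With 1 group of 3 samples no test between groups was possible and no p-value was computed; the number of arrays limits precision. Analyses used Python 3.11.15, pandas 2.3.3, R 4.3.3 and limma 3.58.1 (normexp, offset 50, from median signals). The spread measure was tested on simulated data.

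The members and gene lists were chosen with earlier results of these data known. All members are named with every probe; of each other list the smaller side of its split by detection where it held at most 8 genes, otherwise the first 4 of each side, and every gene with a range over 1 log2 unit, except that vomeronasal receptors are given by counts and some list genes are not reported here. Alternatives were other detection rules, other probe rules, other scalings, normexp, the deposited log2 table, no filter on dim probes, outlier-flagged spots kept, and leaving out each replicate.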

Additional observations from a re-analysis of the deposited data

How the results depend on the processing

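The counts of detected members and the median SD of their detected probes kept their values within a factor of 1.5 under every alternative run. The SDs of the 11 single probes were less stable, and 25 of their values moved by more than that factor while 74 did not. Neurog1, at 0.064, came to 0.133 with quantile normalization, 0.136 in the deposited table and 0.012 without replicate 3, Tubb3 fell from 0.055 to 0.008 without replicate 1, and the brighter Zic1 probe from 0.063 to 0.009 without replicate 2. Member probes detected stayed at 8, and rose to 9 with the looser flag for positive and significant signal, through the dimmer Zic1 probe. Member genes detected stayed at 7, and came to 5 when all probes of a gene had to pass, which removed Pax6 and Zic1. The 64 other neural genes became 56 under that rule and 76 under the looser flag, and 64 to 66 when a replicate was left out. Leaving out a replicate can only keep or raise a detection count, because fewer arrays have to pass. The looser flag also moved the streak and mesoderm genes from 5 to 9 and the vomeronasal receptors from 22 to 45. The median SD of the detected members ran from 0.046 with normexp to 0.077 with median scaling, and from 0.066 to 0.082 when a replicate was left out, and no detected member had a range over 1 log2 unit in any of these. Replicate 3 set the spread of the dimmer Sox1 probe, whose SD was 0.056 without it. Median scaling placed the levels of all probes higher by 3.77 to 3.85 log2 units. Normexp with an added offset raised dim levels, for example Neurog1 from −5.18 to −3.10, and took the brighter Sox1 probe from 0.01 to −0.17, that is from just above to just below the 75th percentile. Leaving outlier-flagged spots out of the detection rule was chosen after seeing the data. No spot of the member probes was flagged, so that rule could not change a count of members. Signal over background limits what can be said of Neurog1, Neurog2 and the dimmer probes of Pax6 and Zic1. No paired analysis was possible because there is just 1 group, with nothing to pair it to.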
